A study of Citrullus lanatus with 30 samples.

Results

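The comparison described here set ripening flesh of wild type watermelon (Citrullus lanatus) at 34 days after pollination (DAP) against the same tissue at 26 DAP. It used 6 of the 30 libraries of a series on wild type (WT) fruit and fruit of a mutant labelled clnor, each represented by 3 libraries at 5 ages from 10 to 42 DAP. The WT 34 DAP group and the WT 26 DAP group differed only in age as labelled, and the labels give neither an allele nor a treatment for them. The clnor 34 DAP group and the clnor 26 DAP group, 3 libraries each, served to test whether the change differed between genotypes. The labels do not name the cultivar, and the deposited table does not say which gene clnor alters, so the mutant was not checked by its transcript. Expression was given as TPM (transcript abundance corrected for transcript length and scaled to a fixed total per library). Of 22596 genes in the table, 14219 reached 1 TPM in 3 or more of these 6 libraries and were tested, and the remaining 8377 stayed under that limit. Nothing in the labels ties the 3 libraries of a group to different fruits or plants. The p-values therefore reflect only how much the libraries vary, and that variation may be technical. The spread of each gene was estimated over all 30 libraries, so scatter at other ages and in clnor also enters its p-value.

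Watermelon fruit first grows by cell division and expansion, and then ripens without the ethylene burst of climacteric fruits such as tomato. During ripening the flesh of red types accumulates lycopene from the carotenoid pathway, fills its vacuoles with sucrose, glucose and fructose, and softens as the walls of its very large cells are remodelled. Abscisic acid is known to rise in ripening flesh of several fruits that lack an ethylene burst. The flesh is also known for its store of the amino acid citrulline.

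The 6 libraries fell into their labelled groups. Spearman correlations over the tested genes were 0.967 to 0.984 among the 34 DAP libraries, 0.949 to 0.980 among the 26 DAP libraries, and 0.855 to 0.914 between the ages. Each library was nearest to its own group among the 10 groups of the series. Between 13404 and 13651 genes reached 1 TPM at 34 DAP, against 14135 to 14462 at 26 DAP. TPM keeps no read depth, so the depth behind these values is unknown and no counting interval can be given. Of 14 genes set as markers of coloured flesh, mostly carotenoid enzymes, none was at 0 in all 6 libraries. They summed to 636, 615 and 641 TPM at 34 DAP, against 265.5, 263 and 326 TPM at 26 DAP. Xylem markers summed to 17.8, 17.6 and 15.6 TPM at 34 DAP, against 22.2, 16.6 and 16.4 TPM at 26 DAP. Green tissue markers summed to more, with 3413, 3439 and 2692 TPM at 34 DAP, against 2257, 2008 and 1966 TPM at 26 DAP. Seed markers, described below, summed to more still, so these values do not show the flesh to be free of other tissue. The 26 DAP libraries were not equally far from 34 DAP. Replicate 3 of 26 DAP was the lowest of its group in 1111 of the 1664 genes that fell at least 2-fold (66.8%), and the highest of its group in 501 of the 718 genes that rose at least 2-fold (69.8%). Without it, 2052 genes rose and 3374 fell.

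Between these ages 5397 genes (38.0% of those tested) passed the test. At 34 DAP 1982 genes (13.9%) were higher and 3415 (24.0%) were lower than at 26 DAP, by limma's test on log2(TPM + 1) with Benjamini-Hochberg adjusted p below 0.05. Changes of at least 2-fold on this scale were found in 718 risen genes (5.05%) and 1664 fallen genes (11.7%). A log2(TPM + 1) change of 5 or more was called in 13 risen and 7 fallen genes. The added 1 shrinks changes that start or end near 0 TPM, so these are not counts of 32-fold changes in TPM. Xyloglucan endotransglucosylase/hydrolase Cla97C09G183890 (log2 change -4.75) is outside the 7, though it averaged 0.56 TPM at 34 DAP and 47.6 TPM at 26 DAP. Genes that rose were the more abundant ones: the median gene that rose averaged 56.5 TPM at 34 DAP and 29.4 TPM at 26 DAP, while the median gene that fell averaged 8.61 TPM at 34 DAP and 20.3 TPM at 26 DAP. The 3 libraries of 34 DAP lay wholly above those of 26 DAP for 3073 genes (21.6%) and wholly below them for 4882 (34.3%).

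The balance of rises and falls depended on how the libraries were scaled. The median log2 change over the tested genes was -0.13 with the values as deposited, and 36.7% of called genes were higher at 34 DAP. Under quantile normalization, which forces 1 common distribution on all libraries, the median was 0.05, and 2810 genes rose while 2355 fell, so that 54.4% were higher. The gene groups below whose balance turned with this scaling are named where they are described.

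**Figure D1:**
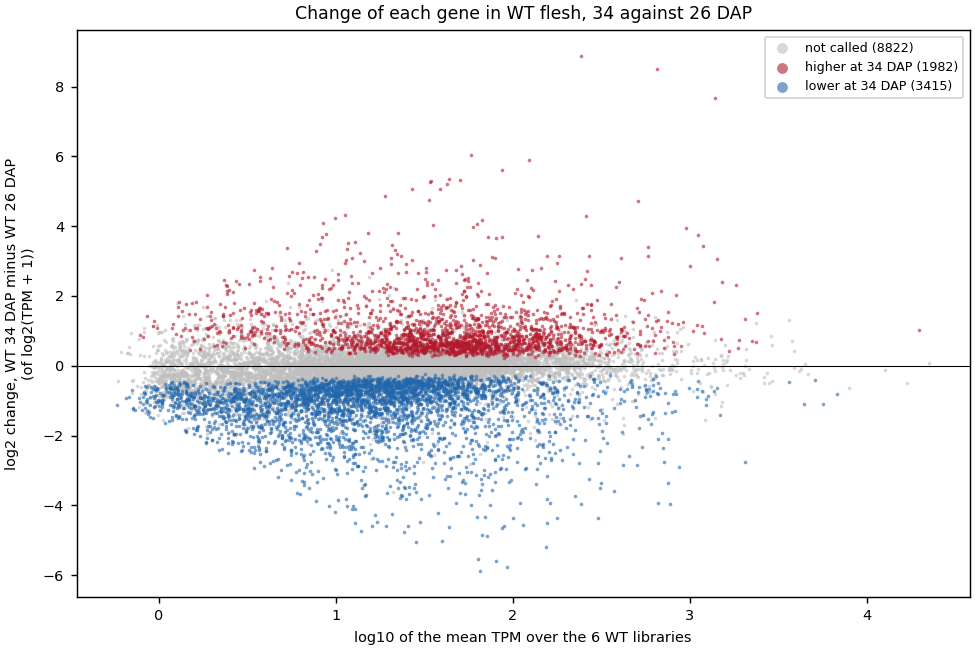
Log2 change of each of the 14219 tested genes, WT 34 DAP minus WT 26 DAP, against the log10 of its mean TPM over the 6 libraries; each point is 1 gene, red where called higher (1982) and blue where called lower (3415) at 34 DAP. The largest rises reach log2 values above 8, beyond any fall.

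The 12 genes with the largest rises had various annotated roles, and 2 of them were annotated as alcohol dehydrogenases. These 12, and the 12 largest falls below, were taken only from called genes whose libraries of the 2 ages did not overlap. That separation is therefore a condition of the choice and not a result. The alcohol dehydrogenase Cla97C09G172570, an enzyme that reduces acetaldehyde to ethanol, had 1337, 1170.0 and 1402 TPM at 34 DAP, against 1.47, 1.71 and 5.91 TPM at 26 DAP (log2 change 8.50 ± 0.62 (SE), adjusted p = 3.41e-09). Every 34 DAP library was far above every 26 DAP library. A hypoxia-responsive family protein, Cla97C11G212740, had 510.4, 341 and 593 TPM at 34 DAP and was listed at 0 in all 3 libraries of 26 DAP (adjusted p = 6.27e-07). The early nodulin-93-like gene Cla97C11G209360, of a family first described in soybean root nodules, had 2676, 1846 and 3696 TPM at 34 DAP, against 3.44, 6.87 and 61.4 TPM at 26 DAP (log2 change 7.67 ± 0.67 (SE), adjusted p = 6.74e-08). One 26 DAP library, replicate 3, was far above the others of its age for it.

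Dihydroflavonol-4-reductase Cla97C06G109680, an enzyme of the anthocyanin branch, had 214, 136 and 161 TPM at 34 DAP, against 0.88, 1.59 and 7.57 TPM at 26 DAP (log2 change 5.60 ± 0.68 (SE), adjusted p = 3.05e-06). A MYB-related transcription factor, Cla97C10G196920, had 82.0, 72.2 and 48.5 TPM at 34 DAP, against 1.70, 0.46 and 0.27 TPM at 26 DAP, and the CLE peptide precursor Cla97C01G006000, a member of a family of short signalling peptides, had 131, 48.9 and 68.7 TPM at 34 DAP, against 0, 3.06 and 1.27 TPM at 26 DAP. The 3 libraries of each age were well apart for both. A second alcohol dehydrogenase, the alcohol dehydrogenase-like 7 gene Cla97C08G152400, had 89.8, 71.1 and 41.6 TPM at 34 DAP, against 0.74, 0.14 and 1.42 TPM at 26 DAP (log2 change 5.28 ± 0.44 (SE), adjusted p = 2.43e-08). The wall glycoprotein extensin-2-like Cla97C07G143610 averaged 99.1 ± 41.0 TPM at 34 DAP and 1.45 ± 0.765 TPM at 26 DAP (SD, n = 3 each). The spread among 34 DAP libraries was wide in some of the 12. The 18.1 kDa class I heat shock protein Cla97C05G094650 had 29.8, 15.1 and 215 TPM at 34 DAP with its high value in replicate 3, whereas the heme-binding 2 gene Cla97C05G107770 (415, 279 and 39.8 TPM) and the invertase/pectin methylesterase inhibitor Cla97C05G107750 (88.9, 123 and 18.9 TPM) were lowest in replicate 3. A glycine-rich protein, Cla97C04G068820, also varied, with 91.8, 234 and 22.6 TPM at 34 DAP. At 26 DAP none of these 4 genes passed 3 TPM in any library.

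For most of these genes the mean was lower at 42 DAP than at 34 DAP. The 34 DAP mean was the highest of the 5 WT ages for 9 of the 12 genes, and for 9 of them the 42 DAP mean was below 50% of the 34 DAP mean, a difference not tested here. The others were the extensin-2-like, glycine-rich and dihydroflavonol-4-reductase genes, which averaged 578, 125 and 112 TPM at 42 DAP. Some of the 9 stayed well above their 26 DAP level. The heme-binding 2 gene Cla97C05G107770 averaged 54.5 TPM at 42 DAP and 1.88 TPM at 26 DAP, and the MYB-related gene Cla97C10G196920 23.6 and 0.81 TPM. The alcohol dehydrogenase Cla97C09G172570 averaged 1303 TPM at 34 DAP and 15.0 TPM at 42 DAP. The hypoxia-responsive gene Cla97C11G212740 averaged 481 TPM at 34 DAP and 10.4 TPM at 42 DAP. This alcohol dehydrogenase, this hypoxia-responsive gene and the early nodulin-93-like gene Cla97C11G209360 were each lowest at 26 DAP among the WT ages. The trough was deepest in the early nodulin-93-like gene, which averaged 2606 TPM at 10 DAP, 737 TPM at 18 DAP and 23.9 TPM at 26 DAP. The alcohol dehydrogenase averaged 69.2 TPM at 10 DAP, 79.3 TPM at 18 DAP and 3.03 TPM at 26 DAP.

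**Figure D2:**
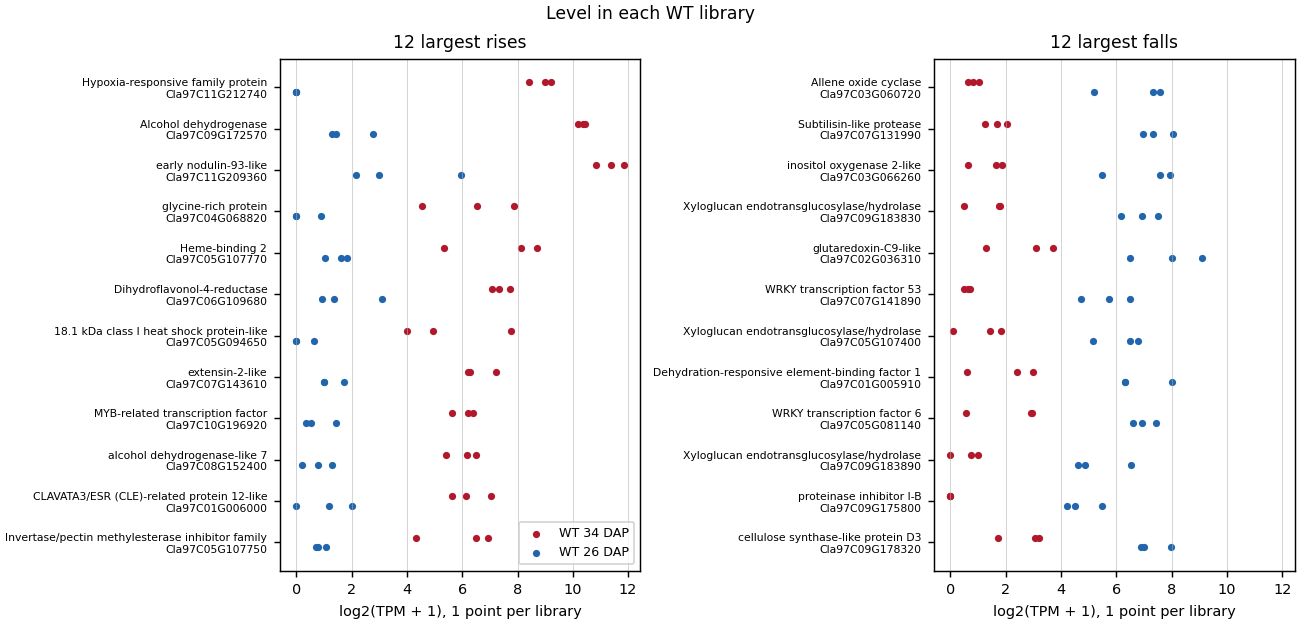
Log2(TPM + 1) of the 12 genes with the largest rises (left panel) and the 12 with the largest falls (right panel) in each of the 3 WT 34 DAP libraries (red) and the 3 WT 26 DAP libraries (blue), 1 point per library. The 2 ages do not overlap in any gene shown, because the genes were chosen on that condition.

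Because several of these transcripts are known to respond to low oxygen in plants, a list of 43 genes of fermentation and oxygen sensing was put together after the values were seen. It holds alcohol dehydrogenases, pyruvate decarboxylases, hemoglobins, plant cysteine oxidases, early nodulin-93 and some LOB domain proteins. Of its 30 tested members 11 rose and 6 fell (3 without replicate 1 of 26 DAP), beside 13.9% and 24.0% of all tested genes. The list was prompted by the largest rises and includes 4 of those 12 genes, so its count is no support for them. Without these 4, 7 of 26 tested members rose and 6 fell, and the summed TPM was 6279.7, 5813 and 6153 at 34 DAP, against 3843, 3782 and 4652 at 26 DAP. Most of the difference in that sum came from Cla97C09G172580 and Cla97C10G205630, whose values follow, so it is given as description. Among the 16 tested alcohol dehydrogenases 7 rose and 2 fell. Cla97C09G172580, whose identifier is consecutive with that of the largest riser, had 1236, 989 and 729.6 TPM at 34 DAP, against 33.0, 37.4 and 37.4 TPM at 26 DAP (log2 change 4.71, adjusted p = 2.81e-06). Pyruvate decarboxylase Cla97C01G023480, which makes acetaldehyde from pyruvate, had 53.3, 35.5 and 58.0 TPM at 34 DAP, against 14.9, 14.2 and 21.4 TPM at 26 DAP (log2 change 1.48, adjusted p = 1.78e-05). The far more abundant pyruvate decarboxylase 2-like gene Cla97C10G205630 had 1954, 1623 and 1642 TPM at 34 DAP, against 1026, 875 and 1240.1 TPM at 26 DAP. It did not pass limma's test (adjusted p = 0.389), although the ages did not overlap. The non-symbiotic hemoglobin 2 gene Cla97C05G103160 had 26.7, 25.1 and 15.3 TPM at 34 DAP, against 0.51, 1.13 and 1.48 TPM at 26 DAP (log2 change 3.51, adjusted p = 7.32e-07). Plant cysteine oxidases, the oxygen sensors of the list, moved the other way or did not pass: 3 of them were lower at 34 DAP and the most abundant, Cla97C02G043660, had 63.6, 68.5 and 71.6 TPM at 34 DAP, against 54.5, 57.1 and 66.5 TPM at 26 DAP. A second hypoxia-responsive family gene, Cla97C03G067710, had similar values at both ages (273, 266 and 309 TPM at 34 DAP, against 232, 305 and 298 TPM at 26 DAP). These single genes of the list were picked out after their values were seen.

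The 12 largest falls included 3 wall enzymes of 1 family, 3 transcription factors and single genes of other roles. Allene oxide cyclase Cla97C03G060720, which makes the jasmonate precursor, had 0.74, 1.07 and 0.56 TPM at 34 DAP, against 192, 161 and 35.7 TPM at 26 DAP (log2 change -5.88 ± 0.65 (SE), adjusted p = 8.6e-07). A subtilisin-like serine protease, Cla97C07G131990, had 1.38, 2.25 and 3.17 TPM at 34 DAP, against 159, 124 and 266 TPM at 26 DAP (log2 change -5.78 ± 0.44 (SE), adjusted p = 8.47e-09). The lowest 26 DAP library was far above the highest 34 DAP library. The inositol oxygenase 2-like gene Cla97C03G066260, whose enzyme feeds glucuronate to wall polymers, had 2.67, 2.15 and 0.57 TPM at 34 DAP, against 192, 242 and 43.2 TPM at 26 DAP (log2 change -5.60 ± 1.10 (SE), adjusted p = 0.000424). For this gene replicate 3 had the lowest value at both ages, as it had for allene oxide cyclase.

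Among the remaining large falls, 3 were the xyloglucan endotransglucosylase/hydrolases (XTH, enzymes that cut and rejoin the xyloglucan tethers of the wall) and 3 were regulators. WRKY transcription factor 53 (Cla97C07G141890), named for a regulator of leaf senescence in Arabidopsis, had 0.65, 0.54 and 0.42 TPM at 34 DAP, against 52.5, 89.95 and 25.3 TPM at 26 DAP (log2 change -5.04 ± 0.71 (SE), adjusted p = 1.52e-05). WRKY transcription factor 6 (Cla97C05G081140) averaged 4.57 ± 3.56 TPM at 34 DAP and 129 ± 38.9 TPM at 26 DAP (SD, n = 3 each). The dehydration-responsive element-binding factor Cla97C01G005910 averaged 3.91 ± 3.24 TPM at 34 DAP and 138 ± 102 TPM at 26 DAP (SD, n = 3 each). Values of the cellulose synthase-like protein D3 gene Cla97C09G178320, a family known for root hair growth in Arabidopsis, were 8.17, 7.27 and 2.30 TPM at 34 DAP, against 128, 252 and 119 TPM at 26 DAP (log2 change -4.64 ± 0.84 (SE), adjusted p = 0.000193). The glutaredoxin-C9-like gene Cla97C02G036310 had 7.47, 12.1 and 1.43 TPM at 34 DAP, against 259, 551 and 89.2 TPM at 26 DAP. Proteinase inhibitor I-B, Cla97C09G175800, was listed at 0 in all 3 libraries of 34 DAP and had 21.9, 43.3 and 17.4 TPM at 26 DAP (adjusted p = 0.0248). This call was lost in 5 of the 6 fits that left out 1 WT library, all but that without replicate 3 of 26 DAP.

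For most of the fallen genes 26 DAP was a peak. The 26 DAP mean was the highest of the 5 WT ages for 9 of the 12 genes, and for all 12 the 42 DAP mean was at most 22.1% of the 26 DAP mean. Allene oxide cyclase Cla97C03G060720 averaged 4.06 TPM at 18 DAP, and WRKY transcription factor 53 (Cla97C07G141890) averaged 0.37 TPM. The subtilisin-like protease Cla97C07G131990 was an exception with 296 TPM at 18 DAP. Over all genes, 26 DAP was the highest of the WT ages for 1045 of the 1664 genes that fell at least 2-fold (62.8%) and for 3274 of all 14219 tested (23.0%). It was the lowest of them for 402 of the 718 genes that rose at least 2-fold (56.0%) and for 2575 of all tested (18.1%). The choice of genes by these 2 ages favours such counts, so they are given as description.

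Among the most abundant transcripts with a known description 1 rose clearly and several did not pass the test. The highest transcript of each 26 DAP library (24392, 18952 and 30532 TPM in replicates 1 to 3) was not among the genes named here. Abscisic stress-ripening protein 1 (Cla97C08G146160), a small protein linked to abscisic acid and sugar signalling in other fruits, had 25614, 27497 and 26168 TPM at 34 DAP, against 11231, 13090.4 and 15134 TPM at 26 DAP (log2 change 1.02 ± 0.24 (SE), adjusted p = 0.00233). Its ages did not overlap. Its neighbour in the numbering, the abscisic stress ripening-like gene Cla97C08G146170, chosen after its values were seen, fell (8.92, 19.8 and 36.7 TPM at 34 DAP, against 341, 294 and 271 TPM at 26 DAP; log2 change -3.93, adjusted p = 7.97e-05). A metallothionein-like gene, Cla97C10G204330, averaged 12032 ± 1132 TPM at 34 DAP and 13181 ± 1894 TPM at 26 DAP (SD, n = 3 each), and the nodulin-like transporter Cla97C02G031010 averaged 4575 ± 902 TPM at 34 DAP and 4392 ± 507 TPM at 26 DAP (SD, n = 3 each). Neither passed the test, and nor did the translationally-controlled tumor gene Cla97C05G087680 (adjusted p = 0.158), the RPM1-interacting protein 4-like gene Cla97C09G182810 (adjusted p = 0.292) or the defensin-like protein 1 gene Cla97C01G007350 (adjusted p = 0.113). Among abundant genes, S-adenosylmethionine synthase Cla97C09G167000 (log2 change -1.10, adjusted p = 0.015), the proline transporter Cla97C07G132240 (log2 change -1.11, adjusted p = 0.0147) and an ADP-ribosylation factor, Cla97C09G180550 (log2 change -0.41, adjusted p = 0.0281), fell. Each of these 3 calls was lost when some WT library was left out: the synthase without replicate 1 or 2 of 26 DAP or replicate 3 of 34 DAP, the transporter without replicate 2 of 26 DAP, and the ADP-ribosylation factor without replicate 1 or 2 of either age. The calls of the synthase and the ADP-ribosylation factor were also lost under quantile normalization, and that of the ADP-ribosylation factor under upper-quartile scaling.

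Genes were also described by lists grouped on words in the table's descriptions, and each list count below is to be read against the 13.9% of all tested genes that rose and the 24.0% that fell. In the carotenoid pathway 14 of 24 tested genes rose and 1 fell, with a median log2 change of 0.77 against -0.13 over all tested genes. Summed TPM of the pathway was 2882, 3012 and 2899 at 34 DAP, against 1351, 1367 and 1420.5 at 26 DAP, so the ages were far apart and the libraries within an age nearly equal. Much of that sum, and of its difference between the ages, came from beta-carotene hydroxylase Cla97C05G090480. This gene acts after lycopene and its values follow, so the sum does not describe the route to lycopene alone. Phytoene synthase Cla97C01G008760, which makes the first carotene, had 264, 276 and 304 TPM at 34 DAP, against 79.0, 85.7 and 103 TPM at 26 DAP (log2 change 1.65 ± 0.38 (SE), adjusted p = 0.00148). Phytoene desaturase Cla97C07G142100, the next enzyme towards lycopene, had 114, 99.8 and 114 TPM at 34 DAP, against 40.1, 40.8 and 55.2 TPM at 26 DAP (log2 change 1.26 ± 0.20 (SE), adjusted p = 5.65e-05). Zeta-carotene desaturase Cla97C06G118930 had 90.4, 85.1 and 70.3 TPM at 34 DAP, against 40.1, 36.1 and 46.7 TPM at 26 DAP and 15-cis-zeta-carotene isomerase Cla97C07G142750 had 71.7, 59.7 and 61.7 TPM at 34 DAP, against 36.3, 33.1 and 37.9 TPM at 26 DAP, and both rose. Thus each step named here from phytoene towards lycopene was higher at 34 DAP.

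Genes that act after lycopene rose too. Beta-carotene hydroxylase Cla97C05G090480, which converts beta-carotene to xanthophylls, was the most abundant of the pathway with 1427, 1615 and 1476 TPM at 34 DAP, against 701, 720.5 and 606 TPM at 26 DAP (log2 change 1.16, adjusted p = 0.000765). Another beta-carotene hydroxylase, Cla97C01G002480, had 111, 105 and 98.2 TPM at 34 DAP, against 9.17, 6.77 and 26.4 TPM at 26 DAP (log2 change 3.03, adjusted p = 0.000557), while Cla97C01G002490, consecutive in numbering, had 230.0, 174 and 145 TPM at 34 DAP, against 91.2, 107 and 118 TPM at 26 DAP and did not pass. Lycopene beta-cyclase Cla97C04G070940, which turns lycopene into beta-carotene, rose only slightly (29.7, 31.9 and 27.8 TPM at 34 DAP, against 21.0, 20.8 and 25.8 TPM at 26 DAP; log2 change 0.39, adjusted p = 0.0209). Zeaxanthin epoxidase-like Cla97C08G156320 rose (log2 change 1.03 ± 0.16 (SE), adjusted p = 3.96e-05). The one member that fell was a geranylgeranyl pyrophosphate synthase with low values, Cla97C09G173590 (0, 0.5 and 0.14 TPM at 34 DAP, against 2.51, 1.88 and 2.40 TPM at 26 DAP), while another of the same description, Cla97C02G039100, rose (134, 137 and 203 TPM at 34 DAP, against 61.2, 50.5 and 84.1 TPM at 26 DAP). Of the named pathway genes, phytoene synthase, phytoene desaturase Cla97C07G142100 and the epoxidase-like gene followed a fixed rule on rank, and the others were picked out after their values were seen.

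**Figure D3:**
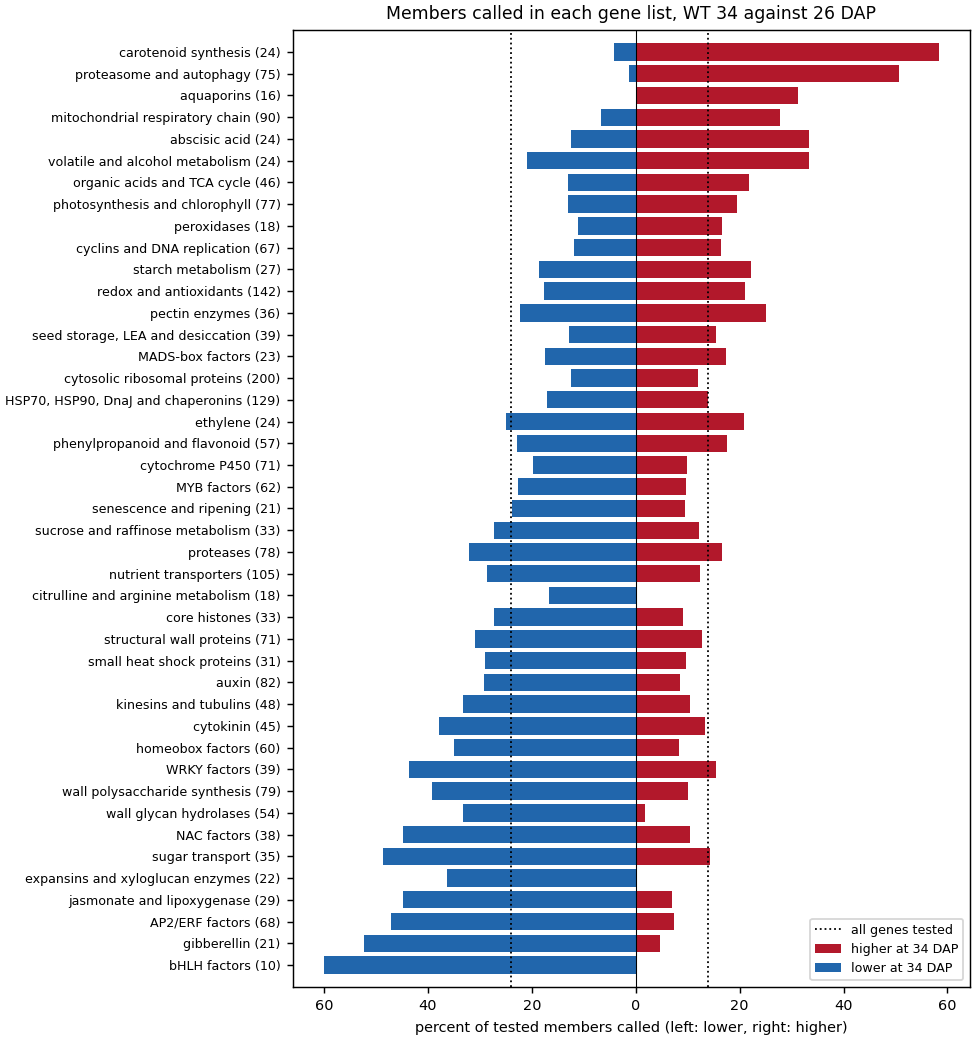
Percent of tested members called higher (right, red) and lower (left, blue) at WT 34 DAP against WT 26 DAP in each gene list with at least 10 tested members, whose number is in parentheses; dotted lines mark 13.9% higher and 24.0% lower, the shares over all tested genes. Carotenoid synthesis and the proteasome and autophagy list lead at the top, and gibberellin, bHLH and AP2/ERF lists stand at the bottom.

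Most genes of the proteasome, the complex that degrades tagged proteins, rose. Of 52 tested proteasome subunits 30 rose and 0 fell by limma's adjusted p (1 at an unadjusted p below 0.05), with a median log2 change of 0.56 and values between -0.54 and 1.30. The 26S regulatory subunit 6B gene Cla97C02G044940 had 145, 152 and 131 TPM at 34 DAP, against 72.6, 63.3 and 77.6 TPM at 26 DAP (log2 change 0.99 ± 0.16 (SE), adjusted p = 4.48e-05). Of 23 tested autophagy genes 8 rose and 1 fell, led by Cla97C01G004150 with 275, 314 and 309 TPM at 34 DAP, against 95.3, 80.5 and 185 TPM at 26 DAP (log2 change 1.40 ± 0.22 (SE), adjusted p = 4.62e-05). Summed TPM over both groups was 7304, 7261 and 7055 at 34 DAP, against 4677, 4244 and 5358 at 26 DAP. The single proteases were divided, with 13 of 78 higher and 25 lower as deposited and 17 each way under quantile normalization. Among those that rose was the subtilisin-like protease SBT3.11, Cla97C09G172990 (302, 315 and 236 TPM at 34 DAP, against 80.1, 108 and 72.5 TPM at 26 DAP).

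More respiratory genes rose than fell as well. In the mitochondrial respiratory chain 25 of 90 tested genes rose and 6 fell (3 without replicate 2 of 26 DAP), and the list's summed TPM was 11169, 10437 and 10643 at 34 DAP, against 7619, 7642 and 8069 at 26 DAP. Cytochrome c oxidase subunit 6a, Cla97C10G191520, had 219, 248 and 231 TPM at 34 DAP, against 108, 139.7 and 126 TPM at 26 DAP (log2 change 0.90 ± 0.14 (SE), adjusted p = 3.7e-05), while NADH dehydrogenase flavoprotein 1, Cla97C10G199610, had 26.5, 25.2 and 18.1 TPM at 34 DAP, against 57.6, 51.3 and 43.5 TPM at 26 DAP and fell (log2 change -1.10 ± 0.17 (SE), adjusted p = 2.71e-05). Of the organic acid and TCA cycle genes 10 of 46 rose and 6 fell (13 and 3 under quantile normalization, 13 and 10 in the fit of the groups compared alone). Malate dehydrogenase, which interconverts malate and oxaloacetate, rose in 3 of 6 tested genes and fell in 0 by limma, adjusted or unadjusted, with 788, 739 and 832 TPM at 34 DAP, against 336, 335 and 395 TPM at 26 DAP for Cla97C06G116670 (log2 change 1.15 ± 0.21 (SE), adjusted p = 0.00018). The cytosolic ribosomal proteins showed no such lean, with 24 of 200 higher and 25 lower. Leaving out replicate 2 of 26 DAP brought those counts to 11 and 15, without replicate 1 of 26 DAP the falls were 12, and without replicates 1 and 2 of 34 DAP in turn the rises were 13 and 15.

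**Figure D4:**
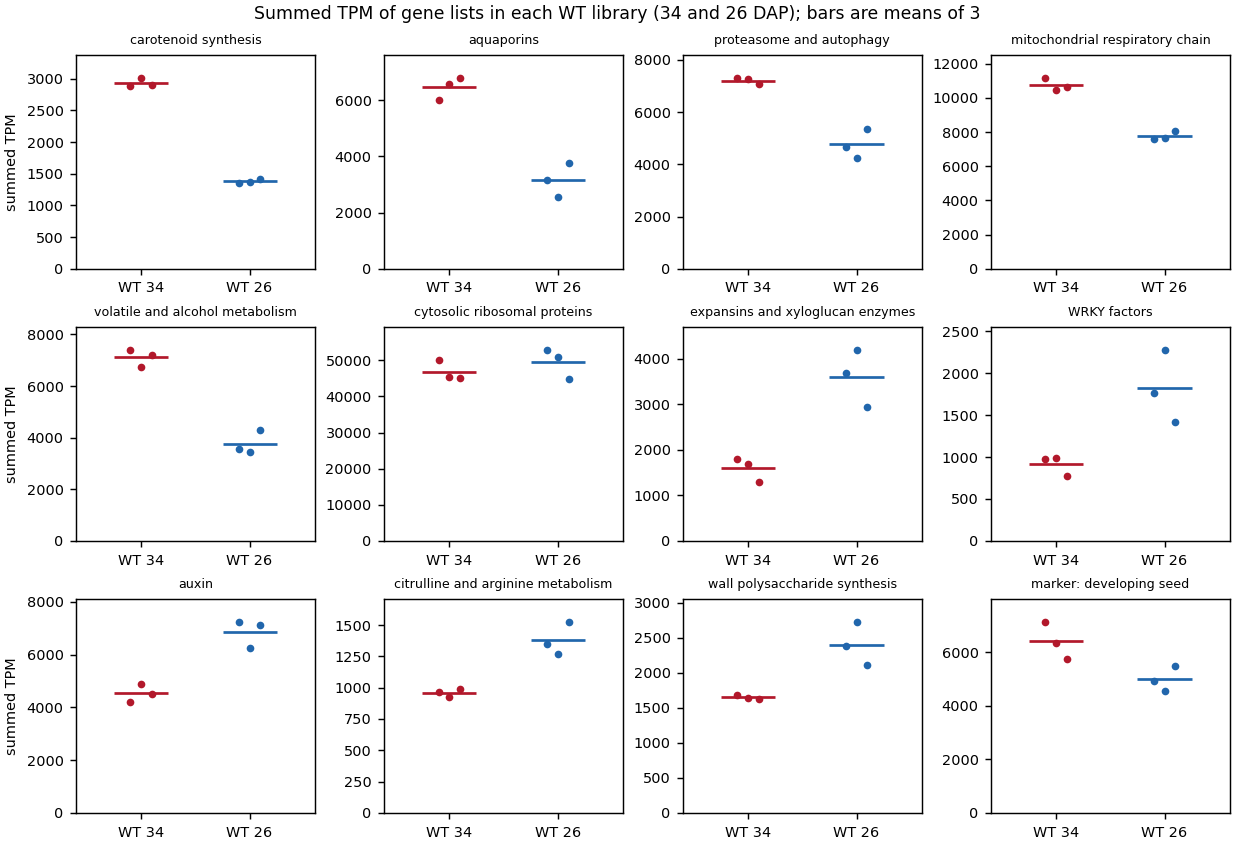
Summed TPM of 12 gene lists in each of the 3 WT 34 DAP libraries (left, red) and the 3 WT 26 DAP libraries (right, blue), with a bar at each mean; every axis starts at 0. Carotenoid synthesis, aquaporins, proteasome and autophagy, respiratory chain and alcohol metabolism are higher at 34 DAP, and the wall, WRKY and auxin lists are lower.

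Sugar transport was divided between a few strong rises and a larger number of falls. Of 35 tested sugar transporters 5 rose and 17 fell, and the falls numbered 8 without replicate 1 of 26 DAP, 11 without its replicate 2, 11 and 10 without replicates 2 and 3 of 34 DAP, and 8 under quantile normalization. Of the genes that rose 4 encode SWEET proteins, which move sugars across membranes in either direction. The SWEET gene Cla97C06G127900 had 25.8, 22.3 and 10.8 TPM at 34 DAP, against 0, 0 and 0.08 TPM at 26 DAP (log2 change 4.25 ± 0.54 (SE), adjusted p = 4.39e-06). The SWEET gene with the highest level, Cla97C01G000640, had 159.5, 158 and 239.6 TPM at 34 DAP, against 26.0, 18.5 and 34.5 TPM at 26 DAP (log2 change 2.79, adjusted p = 3.29e-05), and one SWEET gene that fell, Cla97C07G138130, had 13.1, 18.2 and 14.9 TPM at 34 DAP, against 130.4, 73.6 and 114 TPM at 26 DAP. The remaining gene to rise was the ERD6-like 16 transporter Cla97C05G087120, with 130.4, 109 and 144 TPM at 34 DAP, against 6.30, 1.96 and 42.9 TPM at 26 DAP. The sugar transporter Cla97C07G139970 fell as well (log2 change -1.89, adjusted p = 6.9e-06). Apart from Cla97C06G127900 and Cla97C07G139970 these transporters were chosen after their values were seen.

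In sucrose and raffinose metabolism 4 of 33 tested genes rose (12.1%) and 9 fell (27.3%), shares close to the 13.9% and 24.0% of all tested genes. Neutral/alkaline invertase Cla97C05G088310, which splits sucrose in the cytosol, had 12.6, 12.2 and 10.5 TPM at 34 DAP, against 43.3, 48.9 and 49.5 TPM at 26 DAP (log2 change -1.92 ± 0.18 (SE), adjusted p = 1.32e-07), and the cell wall invertase gene Cla97C10G201810 (beta-fructofuranosidase, insoluble isoenzyme 1-like) had 1.91, 1.40 and 0.92 TPM at 34 DAP, against 11.1, 7.10 and 10.2 TPM at 26 DAP. Alkaline alpha-galactosidase Cla97C04G070460, picked after its values were seen, is of a family that releases galactose from raffinose sugars. It had 2573, 3407 and 2653 TPM at 34 DAP, against 2059, 1405 and 1985 TPM at 26 DAP (log2 change 0.67, adjusted p = 0.0145). Sucrose phosphate synthase 2, Cla97C06G120770, also picked afterwards, did not pass (49.5, 46.8 and 37.4 TPM at 34 DAP, against 47.9, 45.4 and 60.8 TPM at 26 DAP). In starch metabolism 6 of 27 rose and 5 fell. Beta-amylase Cla97C06G117180, a starch-degrading enzyme, had 135, 132 and 88.1 TPM at 34 DAP, against 5.40, 3.39 and 11.04 TPM at 26 DAP (log2 change 4.07 ± 0.41 (SE), adjusted p = 3.76e-07), whereas glucose-1-phosphate adenylyltransferase Cla97C06G115410, whose enzyme starts starch synthesis, had 3.86, 3.56 and 2.92 TPM at 34 DAP, against 17.3, 15.2 and 19.4 TPM at 26 DAP (log2 change -2.04 ± 0.21 (SE), adjusted p = 3.76e-07). Of 18 tested genes of citrulline and arginine metabolism 0 rose by limma's adjusted p (1 at an unadjusted p below 0.05) and 3 fell. A single rise was called under quantile or upper-quartile scaling, in the fit of the 2 groups alone and without replicate 3 of 34 DAP, and the falls numbered 1 without replicate 3 of 26 DAP or replicate 1 or 2 of 34 DAP. Among the falls was arginine decarboxylase Cla97C11G210580, which starts a route from arginine to polyamines, with 93.2, 80.9 and 32.1 TPM at 34 DAP, against 263, 306 and 200.2 TPM at 26 DAP.

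The wall lists are set beside all tested genes, of which 13.9% rose and 24.0% fell. The share that fell was 36.4% of expansins and XTH genes, 39.2% of wall polymer synthesis, 33.3% of glycan hydrolases, 31.0% of structural wall proteins and 22.2% of pectin enzymes. Of the 22 tested expansins and XTH genes 0 rose by limma's adjusted p (2 at an unadjusted p below 0.05, and 1 by adjusted p without replicate 3 of either age) and 8 fell, with a median log2 change of -0.88. Summed TPM was 1792, 1695 and 1294 at 34 DAP, against 3683, 4187 and 2942 at 26 DAP. XTH gene Cla97C05G107400 had 2.55, 1.68 and 0.06 TPM at 34 DAP, against 88.8, 109.7 and 34.5 TPM at 26 DAP (log2 change -5.03 ± 0.67 (SE), adjusted p = 7.69e-06), XTH gene Cla97C09G183890 had 0.99, 0.69 and 0 TPM at 34 DAP, against 28.1, 91.2 and 23.5 TPM at 26 DAP, and XTH gene Cla97C09G183830 had 2.35, 2.48 and 0.39 TPM at 34 DAP, against 119.7, 182 and 71.7 TPM at 26 DAP. Replicate 3 of 34 DAP was the lowest library for all 3. Of 14 tested XTH genes 6 fell, and of 8 tested expansins, which loosen walls without cutting them, 2 fell. Expansin-like A2 Cla97C02G030360, chosen after its values were seen, did not pass the test and had 925, 638 and 351 TPM at 34 DAP, against 196, 208 and 259.8 TPM at 26 DAP (adjusted p = 0.0658).

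Wall polymer synthesis had 31 of 79 tested genes lower and 8 higher. Cellulose synthases and related enzymes fell in 10 of 25 and rose in 1, and trichome birefringence-like proteins, which acetylate wall polymers, fell in 12 of 26 and rose in 2. The cellulose synthase-like C1-1 gene Cla97C05G108640 had 4.57, 3.25 and 3.75 TPM at 34 DAP, against 57.0, 80.8 and 51.5 TPM at 26 DAP (log2 change -3.71 ± 0.41 (SE), adjusted p = 1.01e-06). Trichome birefringence-like 7, Cla97C02G026830, had 0.4, 0.92 and 0.55 TPM at 34 DAP, against 12.9, 13.7 and 11.3 TPM at 26 DAP. Wall glycan hydrolases fell in 18 of 54 and rose in 1 (0 without replicate 1 of 26 DAP, 3 without replicate 3 of 26 DAP and 6 under quantile normalization). Glucan endo-1,3-beta-glucosidase Cla97C07G131550 led them with 9.10, 9.18 and 5.55 TPM at 34 DAP, against 97.0, 154 and 48.04 TPM at 26 DAP (log2 change -3.37 ± 0.43 (SE), adjusted p = 5.01e-06). Pectin enzymes were evenly divided, with 9 of 36 higher and 8 lower. Pectate lyase Cla97C05G106630, which cleaves the pectin chain, rose from a low base (9.27, 7.92 and 6.01 TPM at 34 DAP, against 1.17, 0.97 and 2.46 TPM at 26 DAP), as did pectinesterase Cla97C01G021790 (10.5, 6.87 and 6.30 TPM at 34 DAP, against 1.63, 1.03 and 2.37 TPM at 26 DAP). Structural wall proteins fell in 22 of 71 and rose in 9. The abundant lysine-rich arabinogalactan protein 18-like gene Cla97C01G016410 had 250.4, 219.6 and 83.8 TPM at 34 DAP, against 1635, 1501 and 593 TPM at 26 DAP.

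Of gibberellin genes 52.4% fell, of cytokinin genes 37.8% and of auxin genes 29.3%, beside 24.0% of all tested genes. Gibberellin genes fell in 11 of 21 and rose in 1. That count of falls was 6 without replicate 1 of 34 DAP and 7 without replicate 1 or 3 of 26 DAP or replicate 3 of 34 DAP, and 6 under quantile normalization. The 1 gene to rise was gibberellin 20-oxidase Cla97C05G089570, an enzyme of the last steps to active gibberellin, with 2292, 1914 and 2109 TPM at 34 DAP, against 94.8, 129 and 587 TPM at 26 DAP (log2 change 3.44, adjusted p = 0.00378). It was named because it was the only one. Of 6 tested genes for DELLA proteins, the repressors that gibberellin removes, 4 fell and 0 rose by limma, and of 5 gibberellin receptors 3 fell and 0 rose, with 0 rises at an unadjusted p below 0.05 in either group. DELLA gene Cla97C06G119810 had 46.0, 50.5 and 54.4 TPM at 34 DAP, against 142, 126 and 109 TPM at 26 DAP (log2 change -1.30 ± 0.16 (SE), adjusted p = 3.8e-06), and DELLA protein GAI, Cla97C03G059880, had 23.8, 24.8 and 23.9 TPM at 34 DAP, against 63.0, 63.1 and 51.3 TPM at 26 DAP. Auxin genes fell in 24 of 82 and rose in 7. SAUR gene Cla97C07G141260, of a family of rapid auxin-responsive transcripts, had 0, 0 and 0.37 TPM at 34 DAP, against 32.2, 28.8 and 15.3 TPM at 26 DAP. GH3.3 gene Cla97C05G092790, whose enzyme ties auxin to amino acids, had 9.43, 8.82 and 5.56 TPM at 34 DAP, against 143, 173 and 104 TPM at 26 DAP (log2 change -3.98 ± 0.37 (SE), adjusted p = 1.32e-07). Cytokinin genes fell in 17 of 45 and rose in 6, with the response regulators Cla97C05G087920 (log2 change -1.81, adjusted p = 9.61e-06) and Cla97C04G072360 (log2 change 1.25, adjusted p = 0.00016) moving in opposite directions.

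Genes of abscisic acid rose in 8 of 24 and fell in 3 (5 rose without replicate 2 of 26 DAP or replicate 1 of 34 DAP). The key synthetic enzyme 9-cis-epoxycarotenoid dioxygenase 1, Cla97C07G137260, had 604, 672 and 385 TPM at 34 DAP, against 235, 153 and 110.2 TPM at 26 DAP (log2 change 1.76 ± 0.66 (SE), adjusted p = 0.0377). This call was lost under quantile normalization and without any one of replicates 2 and 3 of 26 DAP and replicates 1 and 2 of 34 DAP, although the ages did not overlap. The low-level homologue Cla97C07G137780 fell (1.74, 2.11 and 1.70 TPM at 34 DAP, against 10.4, 5.50 and 11.4 TPM at 26 DAP). Both Cla97C09G172410 and Cla97C11G212910, described as abscisic acid receptors, rose. Cla97C09G172410 had 286, 228 and 329 TPM at 34 DAP, against 28.3, 21.6 and 45.7 TPM at 26 DAP (log2 change 3.15 ± 0.41 (SE), adjusted p = 6.97e-06) and Cla97C11G212910 had 146, 174 and 219.9 TPM at 34 DAP, against 45.5, 32.8 and 51.5 TPM at 26 DAP (log2 change 2.04 ± 0.25 (SE), adjusted p = 2.59e-06). The PYL8-like receptor gene Cla97C05G090960 fell (log2 change -0.95, adjusted p = 0.00204; picked out as the only one that did), and the other 4 of the 7 tested receptors did not pass.

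Ethylene genes were evenly split, with 5 of 24 higher and 6 lower. ACC oxidase 3 (1-aminocyclopropane-1-carboxylate oxidase, the last step of ethylene synthesis), Cla97C01G021180, had 35.3, 27.6 and 2.63 TPM at 34 DAP, against 1.55, 0.4 and 0.99 TPM at 26 DAP (log2 change 3.02 ± 0.57 (SE), adjusted p = 0.000309). Its replicate 3 at 34 DAP was close to the 26 DAP values. The ethylene receptor Cla97C05G085420 had 24.9, 28.3 and 27.7 TPM at 34 DAP, against 57.4, 72.0 and 61.2 TPM at 26 DAP and fell. Jasmonate and lipoxygenase genes fell in 13 of 29 and rose in 2. Beside allene oxide cyclase, 12-oxophytodienoate reductase 3 Cla97C03G065380, the following enzyme of jasmonate synthesis, had 36.2, 38.5 and 48.5 TPM at 34 DAP, against 228, 177 and 142 TPM at 26 DAP (log2 change -2.11 ± 0.20 (SE), adjusted p = 1.36e-07). Another allene oxide cyclase, chosen after its values were seen, Cla97C11G212320, had 26.2, 26.6 and 20.2 TPM at 34 DAP, against 41.1, 27.7 and 44.2 TPM at 26 DAP and did not pass (adjusted p = 0.105).

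Transcription factor families are likewise read against the 13.9% of all tested genes that rose and the 24.0% that fell. The share that fell was 47.1% in AP2/ERF, 44.7% in NAC, 43.6% in WRKY, 35.0% in homeobox and 22.6% in MYB genes, the last under that of all genes. AP2/ERF genes fell in 32 of 68 and rose in 5 (3 without replicate 1 or 2 of 26 DAP and 2 without replicate 2 of 34 DAP). NAC genes fell in 17 of 38 and rose in 4, WRKY genes fell in 17 of 39 and rose in 6, and homeobox genes fell in 21 of 60 and rose in 5. Of 10 tested bHLH genes 6 fell and 0 rose by limma, adjusted or unadjusted. The WRKY count of falls was 11 without replicate 3 of 34 DAP. NAC domain-containing protein 67 (Cla97C02G036810) had 13.6, 11.7 and 17.1 TPM at 34 DAP, against 123, 188 and 89.6 TPM at 26 DAP (log2 change -3.10 ± 0.40 (SE), adjusted p = 6.41e-06), and NAC domain-containing protein 62 (Cla97C07G136450) had 68.3, 68.6 and 49.0 TPM at 34 DAP, against 173, 189 and 146 TPM at 26 DAP. A homeobox leucine-zipper gene, Cla97C11G221100, had 6.21, 6.38 and 4.14 TPM at 34 DAP, against 69.9, 126 and 44.3 TPM at 26 DAP. An exception among WRKY genes was Cla97C11G211350, which rose (96.9, 107 and 102 TPM at 34 DAP, against 34.8, 33.5 and 46.5 TPM at 26 DAP; log2 change 1.40, adjusted p = 2.33e-06). MYB genes fell in 14 of 62 and rose in 6 as deposited, but under quantile normalization 12 rose and 11 fell. MADS-box genes, which include regulators of fruit ripening in tomato, were level, with 4 of 23 higher and 4 lower. AGAMOUS-like 11, Cla97C08G144840, whose Arabidopsis counterpart specifies ovules, had 1189, 1163 and 1227 TPM at 34 DAP, against 437, 525 and 601 TPM at 26 DAP (log2 change 1.21 ± 0.22 (SE), adjusted p = 0.000243). The AGAMOUS gene Cla97C02G044160 rose (235, 240.3 and 308 TPM at 34 DAP, against 146, 159 and 155 TPM at 26 DAP).

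Some water channels rose: 5 of 16 tested aquaporins rose and 0 fell by limma's adjusted p (1 at an unadjusted p below 0.05, and 1 by adjusted p without replicate 3 of 34 DAP). The most abundant, Cla97C04G076230, had 2956, 3006 and 3037 TPM at 34 DAP, against 527, 436 and 976 TPM at 26 DAP (log2 change 2.30 ± 0.30 (SE), adjusted p = 6.06e-06), and Cla97C07G132470 had 729, 849.8 and 975 TPM at 34 DAP, against 257, 123 and 375 TPM at 26 DAP. Summed TPM of the aquaporins was 6000.2, 6558 and 6787 at 34 DAP, against 3166, 2548 and 3749 at 26 DAP. Nutrient transporters fell in 30 of 105 (28.6%) and rose in 13 (12.4%), shares close to the 24.0% and 13.9% of all tested genes. The rises numbered 8 without replicate 2 of 26 DAP, and under quantile normalization 22 fell and 14 rose. A cationic amino acid transporter, Cla97C06G111930 (log2 change -1.39, adjusted p = 3.14e-06), and a potassium transporter, Cla97C07G133330 (log2 change -1.87, adjusted p = 1.1e-05), were among those that fell.

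Secondary metabolism, redox and stress proteins had no single direction. Phenylpropanoid and flavonoid genes rose in 10 of 57 and fell in 13 (8 without replicate 1 of 26 DAP) as deposited, and rose in 14 and fell in 7 under quantile normalization. Caffeoyl-CoA 3-O-methyltransferase Cla97C11G219650, an enzyme of lignin monomer synthesis, had 997, 857 and 1246 TPM at 34 DAP, against 73.7, 92.5 and 213 TPM at 26 DAP (log2 change 3.16 ± 0.40 (SE), adjusted p = 5.01e-06). Redox genes rose in 30 of 142 (19 without replicate 2 of 26 DAP) and fell in 25, with 104, 97.7 and 94.5 TPM at 34 DAP, against 42.4, 47.0 and 41.3 TPM at 26 DAP for the glutaredoxin Cla97C10G193120. Chaperones of the HSP70, HSP90, DnaJ and chaperonin groups rose in 18 of 129 and fell in 22 (14 without replicate 1 of 26 DAP), a balance that turned to 23 and 18 under quantile normalization. Heat shock 70 kDa protein 8, Cla97C05G086420, had 249, 272 and 225 TPM at 34 DAP, against 30.1, 22.9 and 60.2 TPM at 26 DAP (log2 change 2.80 ± 0.34 (SE), adjusted p = 2.58e-06). Small heat shock proteins rose in 3 of 31 (6 without replicate 3 of 26 DAP) and fell in 9 (4 without replicate 1 of 26 DAP and 5 without replicate 3 of 34 DAP). The 17.8 kDa class I genes Cla97C07G132220 and Cla97C07G132280 had equal TPM in 3 of the 6 libraries, so their values are uncertain as those of separate genes. Photosynthesis and chlorophyll genes rose in 15 of 77 and fell in 10. The fall count was 5 without replicate 1 or 2 of 26 DAP and 6 without replicate 1 of 34 DAP. Chlorophyllide a oxygenase Cla97C08G148460, which makes chlorophyll b, had 40.5, 50.7 and 52.8 TPM at 34 DAP, against 9.03, 8.95 and 10.7 TPM at 26 DAP (log2 change 2.21 ± 0.39 (SE), adjusted p = 0.000134).

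Cytochrome P450 genes rose in 7 of 71 and fell in 14 as deposited (9 each way under quantile normalization), peroxidases rose in 3 of 18 and fell in 2, senescence and ripening genes rose in 2 of 21 and fell in 5, volatile and alcohol genes rose in 8 of 24 and fell in 5, cucurbitacin genes rose in 1 of 5 and fell in 1, and carotenoid cleavage genes rose in 1 of 3 and fell in 1.

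Genes of cell division and the cytoskeleton were mixed. Cyclins and DNA replication genes rose in 11 of 67 (7 without replicate 1 or 2 of 34 DAP) and fell in 8. The mitotic cyclin B1 gene Cla97C02G048670 had 6.89, 5.09 and 9.32 TPM at 34 DAP, against 31.6, 33.7 and 30.1 TPM at 26 DAP (log2 change -2.05 ± 0.22 (SE), adjusted p = 7.32e-07), while DNA polymerase I Cla97C04G070240 had 48.3, 53.3 and 50.9 TPM at 34 DAP, against 8.98, 11.8 and 15.8 TPM at 26 DAP (adjusted p = 7.43e-08). Kinesins and tubulins fell in 16 of 48 and rose in 5 as deposited, but 13 rose and 11 fell under quantile normalization. Kinesin-4-like Cla97C10G199500 had 0.59, 1.32 and 0.54 TPM at 34 DAP, against 13.9, 14.6 and 11.9 TPM at 26 DAP, and the kinesin-related gene Cla97C03G052810 had 38.6, 29.9 and 16.4 TPM at 34 DAP, against 2.94, 2.99 and 4.37 TPM at 26 DAP, in opposite directions and both past the test. Core histones fell in 9 of 33 and rose in 3. The fall count was 5 without replicate 2 of either age.

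Flesh samples can hold seed, vascular and epidermal tissue, and in bulk RNA fewer cells of a type cannot be told apart from less RNA per cell. Seed markers were called in both directions, 6 of 37 higher and 5 lower (8 and 2 under quantile normalization, 3 higher without replicate 2 of 26 DAP, and 3 lower without any one of replicates 1 and 2 of 26 DAP and replicates 2 and 3 of 34 DAP), and summed to 7135, 6339.6 and 5759.9 TPM at 34 DAP, against 4931, 4551 and 5511 TPM at 26 DAP. Of the 81 seed markers 28 were at 0 in all 6 libraries. The seed storage protein gene for 11S globulin, Cla97C05G092030, had 999.5, 615 and 1733 TPM at 34 DAP, against 345, 279 and 1263 TPM at 26 DAP and did not pass the test (adjusted p = 0.606; chosen after its values were seen). Late embryogenesis abundant genes, known from drying seeds, went both ways. Cla97C01G018900 had 2208, 2379 and 1763 TPM at 34 DAP, against 578, 717 and 508 TPM at 26 DAP, and protein D-29, Cla97C05G088560, had 24.4, 12.9 and 7.57 TPM at 34 DAP, against 0.51, 0.47 and 0.49 TPM at 26 DAP. The Lea5 gene Cla97C02G033670, one of the 5 seed markers that fell and chosen after its values were seen, had 23.5, 23.4 and 34.6 TPM at 34 DAP, against 686, 555 and 483 TPM at 26 DAP (log2 change -4.36, adjusted p = 0.00109). Phloem markers fell in 2 of 7 tested (1 without replicate 1 of either age) and rose in 0 by limma, adjusted or unadjusted, with a summed TPM of 90.7, 151 and 132 at 34 DAP, against 399, 333 and 319.7 at 26 DAP, the ages not overlapping. Xylem markers had 0 of 4 tested called by limma, adjusted or unadjusted, and epidermis markers were higher in 2 of 12 and lower in 5 (3 without replicate 1 or 3 of 34 DAP or replicate 1 of 26 DAP, and 3 each way under quantile normalization). Green tissue markers were higher in 7 of 41 and lower in 4 (8 and 1 under quantile normalization, 1 lower without replicate 1 or 2 of 26 DAP or replicate 1 of 34 DAP, and 2 without replicate 2 of 34 DAP), and coloured flesh markers, carotenoid genes for the most part, were higher in 8 of 12 and lower in 0 by limma. The part of other tissues in the results above was not tested.

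Of 13 tested circadian clock genes, a list added after the values were seen, 2 rose and 4 fell (3 and 2 under quantile normalization, and 2 falls without replicate 1 of 26 DAP or replicate 1 or 3 of 34 DAP). LHY (Cla97C06G111640), a clock factor of the morning in Arabidopsis, had 133, 139.9 and 141 TPM at 34 DAP, against 15.8, 16.1 and 13.6 TPM at 26 DAP (log2 change 3.10 ± 0.47 (SE), adjusted p = 3.13e-05). Pseudo-response regulator 7 (Cla97C04G075410), a later clock component, had 95.6, 98.9 and 115 TPM at 34 DAP, against 369.6, 397 and 185 TPM at 26 DAP (log2 change -1.54 ± 0.26 (SE), adjusted p = 8.93e-05). Gigantea (Cla97C09G172950), an evening gene in Arabidopsis, had 35.9, 33.7 and 33.8 TPM at 34 DAP, against 58.8, 58.6 and 62.6 TPM at 26 DAP (log2 change -0.78, adjusted p = 0.0161). The labels give no hour of harvest, and its part in these values was not tested.

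The interval was also sampled in clnor flesh, which lets the WT change be set against that of the mutant. At 34 against 26 DAP in clnor, 2409 genes (16.9%) passed the test (1277 without clnor 26 DAP replicate 1 and 1480 without clnor 34 DAP replicate 3), 1116 higher (7.85%) and 1293 lower (9.09%). Changes of at least 2-fold made up 7.52% of tested genes in clnor, 2.76% higher and 4.75% lower. Of the WT rises 551 were also rises in clnor, which is 27.8% of the WT rises and 49.4% of the clnor rises. Of the WT falls 921 were also falls in clnor, 27.0% of the WT falls and 71.2% of the clnor falls. Opposite calls were made for 18 WT rises and 50 WT falls. The test of the difference of the 2 changes (WT minus clnor) was passed by 1073 genes (7.55%), above 0 for 345 (2.43%) and below 0 for 728 (5.12%). A difference of at least 2-fold was called in 5.44% of tested genes, above 0 in 1.72% and below 0 in 3.72%. By leaving out 1 library, that count was 513 without WT 26 DAP replicate 1, 707 without WT 26 DAP replicate 2, 615 without WT 34 DAP replicate 1, 679 without clnor 26 DAP replicate 1 and 650 without clnor 26 DAP replicate 3. It included 295 of the 1982 WT rises (14.9%) and 591 of the 3415 WT falls (17.3%).

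The WT genes with the largest changes were looked up in the mutant. For 11 of the 12 rises the change was larger in WT than in clnor by the test of the difference, and for 1 of the 12 falls it was. Over all tested genes the difference was above 0 in 2.43% and below 0 in 5.12%. The genes were chosen for extreme changes in the same WT libraries, which favours a larger change in WT, so these counts are given as description. The log2 changes of the 12 rises in clnor lay between -0.65 and 2.27, against 5.07 to 8.88 in WT. The log2 changes of the 12 falls in clnor lay between -4.86 and -1.60, against -5.88 to -4.64 in WT, and 11 of those falls also passed the test in clnor. For the alcohol dehydrogenase Cla97C09G172570 the difference was 6.23 ± 0.88 (SE), adjusted p = 0.000257, with a clnor change of 2.27, adjusted p = 0.0145. Without replicate 2 of clnor 34 DAP that clnor change was 1.08, adjusted p = 0.0931, and it also lost its call without clnor 26 DAP replicate 1 (2.08, adjusted p = 0.0685). The difference was 7.42, adjusted p = 1.21e-07, without clnor 34 DAP replicate 2, and passed in each of the 12 fits that left out 1 library. The early nodulin-93-like gene Cla97C11G209360 had a difference of 5.57 ± 0.95 (SE), adjusted p = 0.00142. In allene oxide cyclase Cla97C03G060720 the clnor change was -4.86, adjusted p = 4.24e-05, and the difference did not pass (adjusted p = 0.539). WRKY transcription factor 53 (Cla97C07G141890) likewise fell in clnor (-4.53, adjusted p = 0.000225).

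Several gene groups also showed the difference in single members. 9-cis-epoxycarotenoid dioxygenase 1, Cla97C07G137260, had a difference of 3.07 ± 0.93 (SE), adjusted p = 0.0449, a call lost in 10 of the 12 fits that left out 1 library, and the abscisic acid receptor gene Cla97C09G172410 of 2.65 ± 0.58 (SE), adjusted p = 0.00862. DELLA gene Cla97C06G119810 fell in WT and rose in clnor (0.67, adjusted p = 0.00693), with a difference of -1.96 ± 0.23 (SE), adjusted p = 3.21e-05. Cyclin B1 Cla97C02G048670 fell in both, and more in clnor (-3.31, adjusted p = 3.16e-09). For phytoene synthase Cla97C01G008760 the clnor change was 0.57, adjusted p = 0.316, and the difference of 1.08 did not pass (adjusted p = 0.224). Of the 24 tested carotenoid genes 0 passed the test of the difference by limma (5 at an unadjusted p below 0.05: 4 above 0 and 1 below), and 7 rose in clnor. Of the 75 tested proteasome and autophagy genes 8 rose in clnor, and 1 passed the test of the difference. These p-values do not show that the changes were alike in the 2 genotypes.

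**Figure D5:**
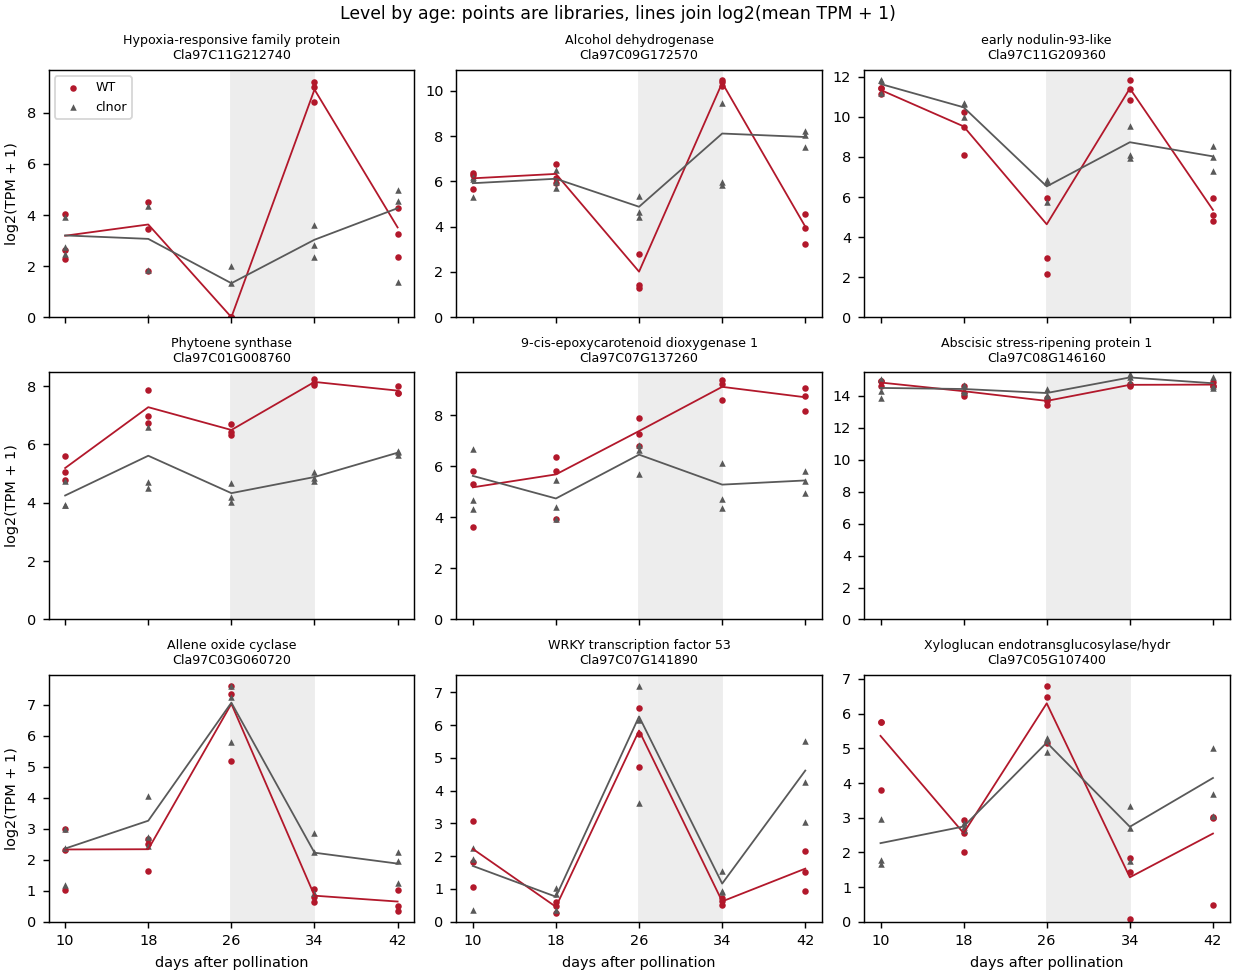
Log2(TPM + 1) of 9 genes by age in WT (red circles) and clnor (grey triangles), 1 point per library, with lines through the log2 of the mean TPM + 1; the shaded band marks 26 to 34 DAP. The top row rises steeply in WT to means of 481 to 2739 TPM at 34 DAP, the middle row rises in WT by 1.02 to 1.76 on the log2 scale, and the bottom row peaks at 26 DAP in both genotypes.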

How the data were processed

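RNA-seq of watermelon flesh was deposited by the authors as 1 table of TPM per gene and library, with a description of each gene. TopHat2, HISAT2, StringTie and Cufflinks are listed, per the submitters' processing notes, without versions, and the genome build is not given in the sources used here. Samples were grouped by labelled genotype and age, and 0 columns of other samples were present. TPM is scaled to a fixed total in each library, so a change in a few abundant genes moves the others.

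Genes that reached 1 TPM in 3 or more of the 6 WT libraries were tested with limma 3.58.1 (R 4.3.3, statmod 1.5.0; trend and robust options) on log2(TPM + 1). All 30 libraries in 10 groups entered the fit, with 20 residual degrees of freedom. Contrasts were WT 34 minus 26 DAP, clnor 34 minus 26 DAP, and the difference of these. P-values were adjusted by Benjamini-Hochberg over all 14219 genes, and genes below 0.05 were called. Fold changes on this scale understate those of low genes.

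Named genes were the called genes with non-overlapping libraries and 20 TPM or more at the higher age that had the 12 largest rises or the 12 largest falls; the 6 most abundant genes at each age; the 2 genes of smallest p in each list that averaged 5 TPM or more at either age; and phytoene synthase. Genes of unknown description were skipped. The members and the 45 lists, built on words in the descriptions, and 6 marker lists were chosen with earlier results of these data known, and 2 further lists were written after the values were seen. Alternatives were pseudocounts of 0.1 and 0.5, no filter, a filter at 5 TPM, upper-quartile and quantile scaling, a fit of the compared groups alone, a replicate block, no trend, and each library left out.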

Additional observations from a re-analysis of the deposited data

Results flagged for a closer look

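For 52 of the 117 genes named by rule, the change between 26 and 34 DAP differed between WT and clnor flesh, by limma's test of the difference with adjusted p below 0.05. The values in parentheses are that difference on the log2(TPM + 1) scale, the WT change minus the clnor change. Of the 52 genes, 27 had a difference above 0, with adjusted p between 0.000257 and 0.0449, and 25 had one below 0, with adjusted p between 3.21e-05 and 0.041. Over all 14219 tested genes the share was 7.55%. The named genes were mostly picked for large changes or small p in the same WT libraries that enter the difference, which favours a high count among them, so it is given as description. No explanation was tested.

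Of the 27 genes with a positive difference 26 were called higher in WT and 1 lower, and in clnor 5 were called higher and 1 lower. Some were at or near 0 in clnor, as was the glycine-rich gene Cla97C04G068820, at 0 in all clnor libraries of 26 and 34 DAP. Such libraries add little to the spread estimated over all 30 libraries, so the precision in WT may be overstated. The most positive differences were in hypoxia-responsive family protein Cla97C11G212740 (7.05), alcohol dehydrogenase Cla97C09G172570 (6.23), glycine-rich protein Cla97C04G068820 (6.03), CLE-related protein 12-like Cla97C01G006000 (5.85), 18.1 kDa class I heat shock protein-like Cla97C05G094650 (5.84), invertase/pectin methylesterase inhibitor family protein Cla97C05G107750 (5.63), early nodulin-93-like Cla97C11G209360 (5.57), MYB-related transcription factor Cla97C10G196920 (5.35) and dihydroflavonol-4-reductase Cla97C06G109680 (5.17). Next came heme-binding 2 Cla97C05G107770 (4.47), bidirectional sugar transporter SWEET Cla97C06G127900 (4.11), alcohol dehydrogenase-like 7 Cla97C08G152400 (3.90), kinesin-related protein Cla97C03G052810 (3.12), 9-cis-epoxycarotenoid dioxygenase 1 Cla97C07G137260 (3.07), caffeoyl-CoA 3-O-methyltransferase Cla97C11G219650 (3.01), late embryogenesis abundant protein D-29 Cla97C05G088560 (2.76), abscisic acid receptor Cla97C09G172410 (2.65) and cytochrome P450 Cla97C01G019400 (2.49). The smallest of the positive differences were in beta-amylase Cla97C06G117180 (2.22), pectinesterase Cla97C01G021790 (1.98), aquaporin Cla97C04G076230 (1.79), heat shock 70 kDa protein 8 Cla97C05G086420 (1.75), pectate lyase Cla97C05G106630 (1.69), subtilisin-like protease SBT3.11 Cla97C09G172990 (1.57), cyclin B1 Cla97C02G048670 (1.26), glutaredoxin Cla97C10G193120 (0.86) and cytochrome c oxidase subunit 6a Cla97C10G191520 (0.79).

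Of the 25 genes with a negative difference 25 were called lower in WT, and in clnor 1 was called higher and 9 lower. The most negative differences were in subtilisin-like protease Cla97C07G131990 (-4.17), auxin responsive SAUR protein Cla97C07G141260 (-3.85), 9-cis-epoxycarotenoid dioxygenase Cla97C07G137780 (-2.61), ethylene-responsive transcription factor ERF003-like Cla97C05G097510 (-2.18), cellulose synthase-like C1-1 Cla97C05G108640 (-2.03), DELLA protein Cla97C06G119810 (-1.96), sugar transporter Cla97C07G139970 (-1.86), BHLH transcription factor Cla97C05G080890 (-1.74) and cytochrome P450 family protein Cla97C05G086800 (-1.73). These were followed by nucleobase-ascorbate transporter 13 Cla97C05G102390 (-1.67), kinesin-4-like Cla97C10G199500 (-1.60), AP2-like ethylene-responsive transcription factor family Cla97C10G198640 (-1.59), WRKY transcription factor 22 Cla97C05G081570 (-1.50), 12-oxophytodienoate reductase 3 Cla97C03G065380 (-1.42), potassium transporter Cla97C07G133330 (-1.42), glucose-1-phosphate adenylyltransferase Cla97C06G115410 (-1.40), cationic amino acid transporter Cla97C06G111930 (-1.37) and Myb-like transcription factor family protein Cla97C05G106980 (-1.31). Closer to 0 were two-component response regulator Cla97C05G087920 (-1.25), neutral/alkaline invertase Cla97C05G088310 (-1.10), chaperone protein dnaJ 16 Cla97C09G183540 (-0.95), NADH dehydrogenase [ubiquinone] flavoprotein 1 Cla97C10G199610 (-0.88), HSP20-like chaperones Cla97C02G046260 (-0.87), transcription factor bHLH144 Cla97C01G024370 (-0.79) and HSP20-like chaperones Cla97C04G074990 (-0.72).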

How the results depend on the processing

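The WT counts, 1982 higher and 3415 lower, stayed within 1.5 times under pseudocounts of 0.1 and 0.5, no filter, a filter at 5 TPM, upper-quartile scaling, a fit of the groups compared alone and a fit without trend or robust options (1860 to 2258 higher, 2761 to 3686 lower). Quantile normalization gave 2810 higher and 2355 lower. Leaving out 1 WT library gave 1413 to 2052 higher and 2454 to 3374 lower. The clnor count of 2409 was 1433 in the fit of the groups compared alone and 1277 to 2100 with 1 clnor library left out. The count for the difference, 1073, was 513 to 1262 with 1 library left out. The cause of these shifts was not tested.

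Libraries with the same number share only that number: their deviations from the group means correlated at 0.01, 0.09 and 0.18 in WT and at -0.10, -0.04 and 0.07 in clnor, and not every library correlated best with its own number. With the replicate number as a block, 1935 genes were higher and 3314 lower in WT (714 and 1649 at 2-fold), and 2311 and 956 genes were called in clnor and for the difference.

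Of the 117 named genes 107 kept their direction and their side of the threshold in every setting tried. The nodulin-like gene Cla97C02G031010, with a change of 0.05 that did not pass the test, ranged from -0.10 without WT 34 DAP replicate 1 to 0.17 without WT 34 DAP replicate 3, and was -0.05 without WT 26 DAP replicate 2. Of 112 called genes 7 lost their call in some setting, 5 of them described above, with Cla97C01G016820 (leaving out replicate 3 of 26 DAP or either of replicates 1 and 2 of 34 DAP) and Cla97C10G192750 (quantile normalization). The uncalled Cla97C01G007350 passed without WT 26 DAP replicate 3, and Cla97C05G087680 in the fit of the groups compared alone. Depth is unknown, so precision at low TPM rests on the spread between libraries alone.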
